A study of Rattus norvegicus albus with 14 samples.

Results

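The messenger RNA of 10 genes of the cardiac intercalated disc was followed in cultured rat heart muscle cells exposed to rosiglitazone, an antidiabetic ligand of the nuclear receptor PPARγ. The genes were chosen by name, with earlier results of these data known. They were the gap junction genes Gja1, Gja5 and Gjc1 and the desmosomal genes Dsp, Pkp2, Jup, Dsg2 and Dsc2. The adherens junction genes Cdh2 and Ctnna3 completed the list. The symbol Ctnna3 stands against 2 Ensembl IDs, so the 10 genes occupy 11 of the 32545 gene IDs in the tables. All 11 were among the 15655 gene IDs that passed the filter on low counts.

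The cells were neonatal rat ventricular myocytes from 1-day-old Sprague-Dawley rats, pooled after preplating and grown in serum-free medium. Every group, the control included, received 1% DMSO. The control group was exposed to DMSO alone for 0.5 h (1 library), and the other groups to 10 µmol/L rosiglitazone in DMSO for 0.5 h, 24 h or 48 h (2 libraries each). DMSO alone was analysed here only at 0.5 h, so in every comparison between times the drug's effect and that of longer culture cannot be told apart. Whether the 2 libraries of a group are separate cultures is not in the labels, and p-values then measure only a spread that may be technical.

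The intercalated disc is the end-to-end contact of heart muscle cells. Its desmosomes tie the desmin filaments of neighbouring cells together: the cadherins desmoglein and desmocollin meet between the cells, and plakoglobin, plakophilin and desmoplakin link them to the filaments inside. Adherens junctions do the same for actin through N-cadherin and the catenins, gap junctions are connexin channels that carry the electrical impulse from cell to cell, and in the heart desmosomal and adherens proteins are mixed in a hybrid junction called the area composita. Isolated neonatal myocytes lose these contacts and rebuild them in culture.

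Libraries held 10886559 to 28074620 counts, and replicate 2 of 48 h was the shallowest. The 2 libraries of 24 h stood furthest apart: over all tested genes, the SD of the replicates' log2 difference was 0.81 for the libraries of 0.5 h with rosiglitazone, 1.60 for those of 24 h and 1.23 for those of 48 h. The label gives a purity above 98% myocytes. Heart muscle markers were present in every library (9 of 10 listed markers matched, none at 0). Fibroblast markers were present too, the highest being the collagen gene Col1a1 with 26088 CPM in the DMSO library. There Myh6, the α-myosin heavy chain of heart muscle, had 963 CPM, and Myh7 and Tnnt2 had more (1307 and 1289 CPM). Of the other fibroblast markers, Col3a1 and Postn lay above Myh6, and Dcn, Lum, Pdgfra and Tcf21 below it (67.3 to 946 CPM). The median in that library was 946 CPM over 7 fibroblast markers and 304 CPM over 9 heart muscle markers. CPM is the count relative to the library's total after TMM scaling, not divided by gene length.

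Over the whole course, from 0.5 h to 48 h with rosiglitazone, 3 of the 5 desmosomal genes and the gene of N-cadherin fell. Desmocollin 2 stood higher without passing the test. Dsp fell 4.98-fold, Pkp2 9.73-fold, Dsg2 5.17-fold and Cdh2 3.18-fold. Dsc2 was 3.26-fold higher at 48 h and missed the threshold narrowly, as did Jup, which was 4.42-fold lower. None of the 3 connexins passed the test. In edgeR's quasi-likelihood test with a Benjamini-Hochberg adjusted p under 0.05, 4 of 11 gene IDs were called lower and 0 higher, against 4.62% and 1.97% of all tested genes. At an unadjusted p under 0.05, 1 of 11 was higher (Dsc2, 9.09%), which is about the share of all genes (9.65%).

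Dsp encodes desmoplakin, the plaque protein that binds the intermediate filaments (ENSRNOG00000013928). Its level was 279 CPM with DMSO and 366 and 337 CPM with rosiglitazone at 0.5 h. It was 134 and 146 CPM at 24 h and 55.5 and 85.7 CPM at 48 h. All 3 libraries of 0.5 h lay above both libraries of 24 h, which lay above both of 48 h, and Dsp had the smallest spread between the 24 h replicates among the desmosomal genes. The 48 h mean was 70.6 ± 21.4 CPM against 351 ± 20.5 CPM at 0.5 h (SD, n = 2 each). The log2 fold change was -2.32 ± 0.29 (SE, 95% interval -2.99 to -1.64), with an edgeR adjusted p of 0.0128.

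Pkp2 encodes plakophilin 2, an armadillo-repeat protein that links desmoplakin to the desmosomal cadherins (ENSRNOG00000001825). It had 48.5 CPM with DMSO, 73.8 and 63.2 CPM with rosiglitazone at 0.5 h, 23.8 and 11.7 CPM at 24 h, and 2.67 and 11.7 CPM at 48 h. The libraries of 24 and 48 h overlapped with each other, and all 4 were below every library of 0.5 h. At 48 h the log2 fold change against 0.5 h was -3.28 ± 0.65 (SE, 95% interval -4.80 to -1.76, edgeR adjusted p = 0.0400). The size rested in part on 1 library, since it was -2.58 without replicate 1 of 48 h and -4.68 without replicate 2.

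Dsg2 encodes desmoglein 2, the desmoglein of heart muscle (ENSRNOG00000016526). Its level was 73.0 CPM with DMSO and 93.2 and 92.4 CPM with rosiglitazone at 0.5 h. It was 51.6 and 21.7 CPM at 24 h and 17.1 and 18.9 CPM at 48 h. The 48 h libraries lay close together and below all others. The log2 fold change of Dsg2 over the course was -2.37 ± 0.41 (SE, 95% interval -3.33 to -1.41, edgeR adjusted p = 0.0251).

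Jup encodes plakoglobin, which is shared by desmosomes and adherens junctions (ENSRNOG00000015380). It had 117 CPM with DMSO, 154 and 172 CPM with rosiglitazone at 0.5 h, 137 and 50.5 CPM at 24 h, and 26.1 and 48.0 CPM at 48 h. Replicate 1 of 24 h was near the level of 0.5 h and replicate 2 near that of 48 h. The difference between 48 h and 0.5 h was -2.14 ± 0.49 on the log2 scale (SE, 95% interval -3.29 to -0.996), and its edgeR adjusted p of 0.0520 missed the threshold.

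Dsc2 encodes desmocollin 2, the desmosomal cadherin that partners Dsg2 (ENSRNOG00000039969), and it ran the other way. It had 10.2 CPM with DMSO, 14.7 and 15.4 CPM with rosiglitazone at 0.5 h, 33.6 and 22.7 CPM at 24 h, and 63.4 and 34.6 CPM at 48 h. The groups did not overlap and stood in the order of time. Replicate 2 of 48 h, the shallowest library, lay barely above replicate 1 of 24 h (34.6 against 33.6 CPM). Between 48 h and 0.5 h the log2 difference was 1.71 ± 0.39 (SE, 95% interval 0.79 to 2.62), with an edgeR adjusted p of 0.0503. Dsc2 was the only one of the 11 gene IDs with a positive log2 fold change in this comparison, and its interval does not meet that of Dsg2.

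**Figure D1:**
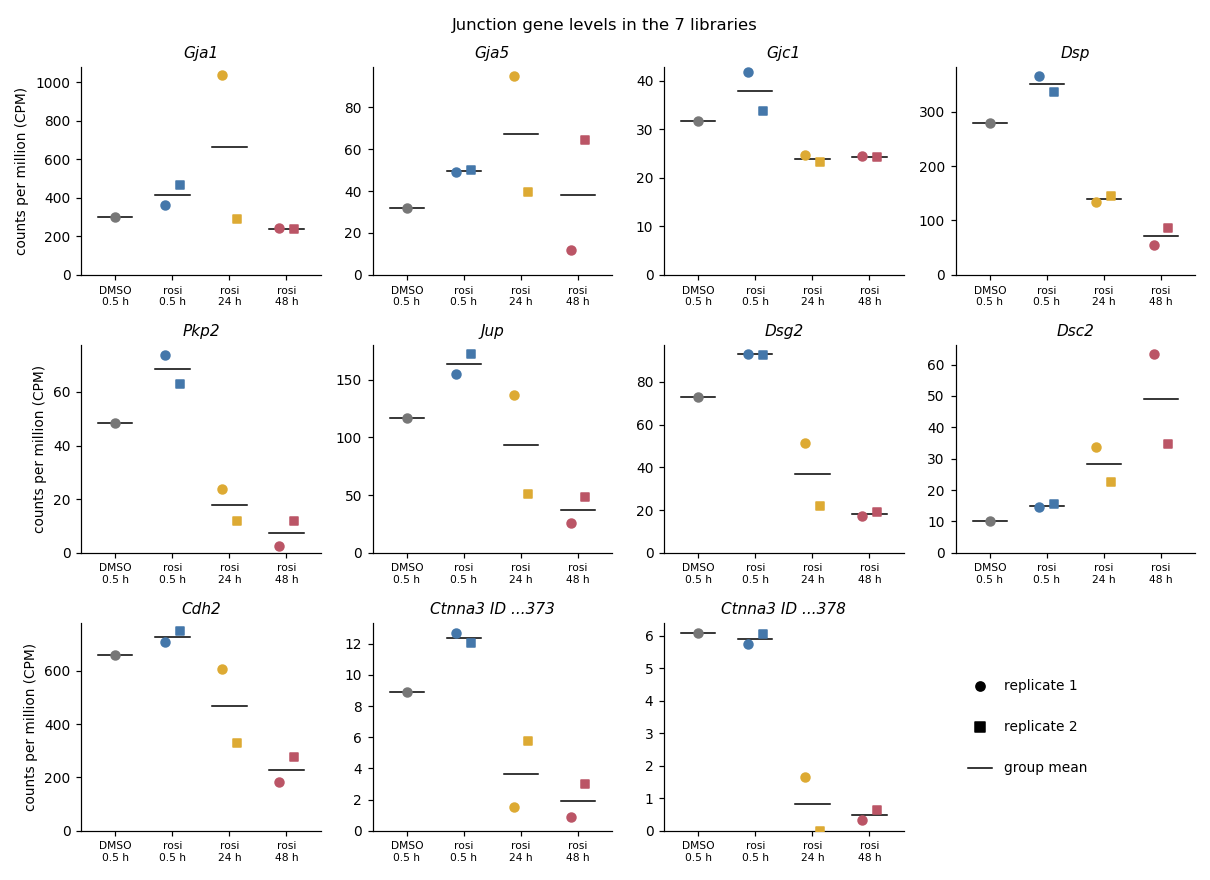
Levels of the 10 junction genes (11 gene IDs) in CPM after TMM scaling, on a linear axis from 0, in the 7 libraries. Circles are replicate 1, squares replicate 2 and lines group means. The group means of Dsp, Pkp2, Dsg2 and Cdh2 are lowest at 48 h, though the Pkp2 libraries of 24 and 48 h overlap. Dsc2 is highest at 48 h (63.4 and 34.6 CPM), and Gja1 and Gja5 stand high in replicate 1 of 24 h.

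The balance of the 2 desmosomal cadherins was also read within each library, where scaling between libraries plays no part. The opposite courses above, in the same counts, already set its direction, so the ratio is a description and no further support. There were 0.140 Dsc2 counts per Dsg2 count with DMSO, 0.157 and 0.167 with rosiglitazone at 0.5 h, 0.652 and 1.04 at 24 h, and 3.72 and 1.83 at 48 h. The ratio in both libraries of 48 h was above that in all 3 libraries of 0.5 h. It is not corrected for gene length, so it shows a shift between libraries and not which of the 2 transcripts was more abundant. An exact two-sided permutation test of 2 libraries against 2 cannot go below p = 0.333, so none was applied to this ratio. In the RefSeq annotation of GRCr8 both genes lie in the desmosomal cadherin cluster on 1 chromosome, with Dsc1, Dsg1, Dsg4 and Dsg3 between them. Of these, Dsc1 and Dsg1 had 0 counts in every library, and Dsg3 did not pass the filter on low counts.

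Cdh2 encodes N-cadherin, the cadherin of cardiac adherens junctions (ENSRNOG00000015602). It had 661 CPM with DMSO, 707 and 750 CPM with rosiglitazone at 0.5 h, 607 and 330 CPM at 24 h, and 183 and 276 CPM at 48 h. Both libraries of 48 h were below all others, and the 24 h replicates stood apart, replicate 1 nearer to the level of 0.5 h. Over the whole course Cdh2 fell by 1.67 ± 0.37 on the log2 scale (SE, 95% interval of the change -2.53 to -0.80, edgeR adjusted p = 0.0467).

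Ctnna3 encodes αT-catenin, which binds plakophilin 2 and joins actin to the area composita. The tables carry the symbol on ENSRNOG00000000373 and on ENSRNOG00000000378, and how reads were divided between them is not given in the sources used here, so both are uncertain. The first had 252 counts with DMSO, 361 and 332 with rosiglitazone at 0.5 h, 35 and 152 at 24 h, and 24 and 32 at 48 h. The second had 172 with DMSO, 163 and 167 at 0.5 h, 38 and 0 at 24 h, and 9 and 7 at 48 h. Replicate 2 of 24 h therefore had 152 counts on the first ID and 0 on the second, where replicate 1 had similar counts on both (35 and 38). The 0 allows a share of up to 2.40% of the reads on both IDs (upper bound of the exact 95% Clopper-Pearson interval, counting error only), while the second ID held 17.9% to 52.1% of them in the other 6 libraries.

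Summed over both IDs, Ctnna3 had 14.99 CPM with DMSO, 18.5 and 18.1 CPM with rosiglitazone at 0.5 h, 3.19 and 5.73 CPM at 24 h, and 1.21 and 3.63 CPM at 48 h. All 4 later libraries were below all 3 of 0.5 h. Tested singly from 0.5 h to 48 h, the first ID had a log2 difference of -2.72 ± 0.82 (SE, edgeR adjusted p = 0.111) and the second -3.62 ± 1.55 (SE, edgeR adjusted p = 0.250). Neither passed the test.

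The connexins showed no common course. Gja1 encodes Cx43, the main gap junction protein of ventricular muscle (ENSRNOG00000000805). It had 302 CPM with DMSO, 363 and 465 CPM with rosiglitazone at 0.5 h, 1037 and 287 CPM at 24 h, and 242 and 239 CPM at 48 h. Replicate 1 of 24 h had the highest level and replicate 2 lay below both rosiglitazone libraries of 0.5 h, so the 24 h mean of 662 ± 530 CPM (SD, n = 2) describes neither library. Between 0.5 h and 48 h the log2 difference was -0.79 ± 0.53 (SE, 95% interval -2.03 to 0.46, edgeR adjusted p = 0.435), although the libraries of the groups did not overlap.

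Gja5 encodes Cx40, a connexin known from the atria and the conduction system (ENSRNOG00000017484). It had 31.9 CPM with DMSO, 49.0 and 50.04 CPM with rosiglitazone at 0.5 h, 94.9 and 39.8 CPM at 24 h, and 12.1 and 64.5 CPM at 48 h. Replicates of 24 h and of 48 h lay on both sides of the 0.5 h level, and the log2 difference from 0.5 h to 48 h was -0.38 ± 0.72 (SE, 95% interval -2.06 to 1.31, edgeR adjusted p = 0.806). Without replicate 1 of 48 h its sign turned, to 0.35.

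Gjc1 encodes Cx45, the connexin of the early heart and of nodal tissue (ENSRNOG00000048838). It had 31.7 CPM with DMSO, 41.8 and 33.8 CPM with rosiglitazone at 0.5 h, 24.6 and 23.3 CPM at 24 h, and 24.5 and 24.3 CPM at 48 h. It had the smallest log2 difference between replicates of all 11 gene IDs at both late times, and the 4 late libraries lay below those of 0.5 h. Its log2 difference from 0.5 h to 48 h was -0.63 ± 0.30 (SE, 95% interval -1.32 to 0.06, edgeR adjusted p = 0.256).

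Of the counts on these 3 connexins, Gja1 held 82.6% with DMSO, 80.0% and 84.7% with rosiglitazone at 0.5 h, 89.7% and 82.0% at 24 h, and 86.9% and 72.9% at 48 h. Gja5 held 4.34% in replicate 1 of 48 h and 19.7% in replicate 2. The replicates of 48 h thus enclosed the Gja5 share of every other library.

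**Figure D2:**
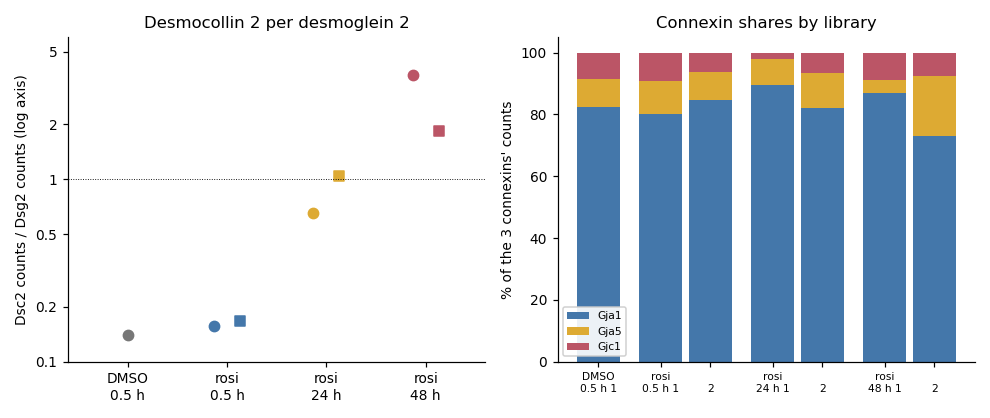
Left, Dsc2 counts per Dsg2 count in each of the 7 libraries on a log axis (circles replicate 1, squares replicate 2, dotted line a ratio of 1), which runs from 0.140 with DMSO to 3.72 and 1.83 at 48 h. Right, each connexin's percent of the counts on Gja1, Gja5 and Gjc1 per library (numbers under the bars are replicates), where Gja1 holds 72.9% to 89.7%; neither panel is corrected for gene length.

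Across the 11 gene IDs, the median log2 fold change from 0.5 h to 48 h was -2.14, beside -0.07 over all 15655 tested. In 9 of 11 both 48 h libraries were below both of 0.5 h, against 34.4% of all tested genes, and in 1 (Dsc2) both were above, against 28.3%. DESeq2, used as another test of the same counts, called 6 gene IDs lower (12% of the 14137 genes it gave an adjusted p) and 1 higher (6.06%). Its additions were Jup, the first Ctnna3 ID and Dsc2. With either rosiglitazone library of 0.5 h or with replicate 1 of 48 h left out, edgeR called 0 of the 11 (0.0773% to 0.616% of all genes), and without replicate 2 of 48 h it called Dsp and Pkp2 (2.55%). Without the DMSO library it called Dsp and Dsg2 (5.76%). With either 24 h library left out, 9 were called and 17.5% of all genes, the additions being Gja1, Jup, Dsc2 and both Ctnna3 IDs.

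Markers of heart muscle were also lower at 48 h than at 0.5 h. The summed level of the 9 matched markers was 5349 CPM with DMSO and 9146 and 8597 CPM with rosiglitazone at 0.5 h. It was 7040 and 1769 CPM at 24 h and 205 and 1229 CPM at 48 h, so that the 48 h mean was 12.4-fold below that of rosiglitazone at 0.5 h. Pkp2, Dsg2 and Cdh2 were likewise higher in replicate 1 of 24 h than in replicate 2, whereas Dsp was not (134 and 146 CPM). Of the 9 markers, 8 fell (edgeR adjusted p under 0.05, against 4.62% of all tested genes), with log2 fold changes from -5.82 (Myh6) to -4.04 (Myl7). Tnnt2, a troponin gene, had -1.99 and did not pass. The 4 junction genes that fell had log2 fold changes between -3.28 and -1.67. In bulk RNA, fewer cells of a type and less RNA per cell cannot be told apart, and the part of the marker loss in the junction genes was not tested.

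Markers of other cell types also moved, and their part was not tested either. The summed fibroblast markers (7 of 8 matched, none at 0) ranged from 50060 to 51611 CPM at 0.5 h, DMSO included, and were 35043 and 32623 CPM at 24 h and 17355 and 33638 CPM at 48 h. At 0.5 h the sum was mostly Col1a1 and Col3a1. The median over the 7 markers was 808 to 994 CPM at 0.5 h, 2156 and 1712 CPM at 24 h, and 766 and 3299 CPM at 48 h. In 3 markers (Dcn, Pdgfra and Lum) both 48 h libraries were above both rosiglitazone libraries of 0.5 h, against 28.3% of all genes. In 3 others (Col1a1, Col3a1 and Tcf21) both were below, against 34.4%. Smooth muscle markers (6 of 6) ranged from 3643 to 4296 CPM at 0.5 h and from 235 to 1359.6 CPM later, with Rgs5 at 0 in 2 of the late libraries. Endothelial markers (7 of 8) went from 167 to 199.9 CPM at 0.5 h to between 41.5 and 95.8 CPM, with Vwf at 0 in replicate 2 of 24 h. Epicardial markers (7 of 7) went from 229 to 257 CPM to between 38.5 and 135 CPM, with Krt19, Upk3b and Lrrn4 each at 0 in 1 late library. Macrophage markers (6 of 6, none at 0) were 487 CPM with DMSO, 143 and 183 CPM with rosiglitazone at 0.5 h, and 49.3 to 90.3 CPM later.

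At 48 h against 0.5 h, the tests called 1 fibroblast marker higher (Dcn, log2 fold change 2.85) and 0 lower of 7 (at an unadjusted p under 0.05, 2 higher, Dcn and Pdgfra, and 1 lower, Col1a1). They called lower 3 of 7 endothelial markers (Kdr, Cdh5 and Tek), 3 of 6 smooth muscle markers (Cnn1, Myh11 and Tagln), 4 of 7 epicardial markers (Krt8, Lrrn4, Msln and Upk3b) and 2 of 6 macrophage markers (C1qc and Csf1r). Of all tested genes, 4.62% were called lower and 1.97% higher. The epicardial marker Krt18 and the macrophage marker Cd68 had positive log2 fold changes (0.20 each) and did not pass. Dsg2, Dsp and Pkp2 are also made by epithelial cells such as mesothelium, and Gja1 and Cdh2 by fibroblasts, so the cell of origin of a junction transcript is not given by these data.

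A list of 27 other junction genes, chosen for their known place in such contacts, gave 22 tested. The shares of all tested genes to set beside its calls are 4.62% lower and 1.97% higher. At 48 h against 0.5 h, 5 fell and 0 rose (0 higher also at an unadjusted p under 0.05 in edgeR), with a median log2 fold change of -1.10 over the 22 (also -1.10 with Gja4 and Gjd3, at 0 in a group, set to their bounds). Those that fell included Cdh13 (T-cadherin, -2.89 ± 0.27), Vcl (vinculin, an actin linker of adherens junctions, -2.04 ± 0.31), Perp (a desmosomal membrane protein, -2.59 ± 0.51) and Cdh5 (VE-cadherin, also counted as an endothelial marker, -2.74 ± 0.60; log2 fold changes ± SE).

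Of the catenins other than plakoglobin and Ctnna3, 3 were on the list and none passed the test. Ctnnb1, β-catenin, had 342 CPM with DMSO, 346 and 335 CPM with rosiglitazone at 0.5 h and 387 and 345 CPM at 48 h. Its log2 difference from 0.5 h to 48 h was 0.10 ± 0.26 (SE, edgeR adjusted p = 0.859). Ctnna1, αE-catenin, the widely expressed relative of Ctnna3, had 542 and 530 CPM at 0.5 h and 563 and 705 CPM at 48 h, a log2 difference of 0.24 ± 0.36 (SE, edgeR adjusted p = 0.742). Ctnnd1, p120-catenin, differed by -0.79 ± 0.30 (SE, edgeR adjusted p = 0.165). Gja4, the endothelial connexin Cx37, had 5.35 and 6.47 CPM at 0.5 h, 0.743 and 0 CPM at 24 h and 0 counts in both libraries of 48 h, which allow up to 0.1098 and 0.279 CPM.

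Of 20 proteins known to sit at the disc, 19 were tested. From 0.5 h to 48 h, 6 fell and 0 rose, against 4.62% and 1.97% of all tested genes. At an unadjusted p under 0.05 in edgeR 0 were higher too, and the median log2 fold change was -1.65 over the 19. Those that fell included Xirp2 (-5.08 ± 0.62) and Xirp1 (-3.20 ± 0.44), actin-binding Xin-repeat proteins, and Csrp3 (muscle LIM protein, -4.06 ± 0.61). Also among them were Sorbs2 (an adaptor of the actin cytoskeleton, -3.82 ± 0.45) and Nrap (a nebulin-related anchoring protein, -1.77 ± 0.36, log2 fold changes ± SE). Tmem43, Myzap and Flnc differed by -0.17 to -0.52 and did not pass. Most of these genes are themselves made mainly by muscle.

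**Figure D3:**
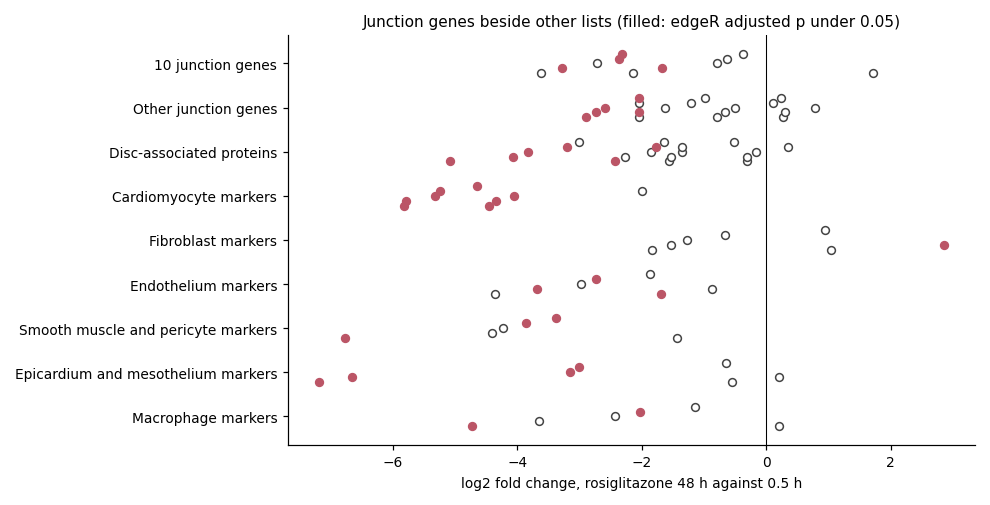
Log2 fold change from 0.5 h to 48 h with rosiglitazone for each tested gene of 9 lists, vertical position within a row being free; filled points passed edgeR's test at an adjusted p under 0.05. The junction genes lie between -3.62 and 1.71, while 8 of 9 heart muscle markers lie at -4.04 or lower; genes with 0 counts in all libraries of a group are not drawn.

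The first day, 24 h against 0.5 h with rosiglitazone, gave 0 calls among the 11 gene IDs, and 0.0958% of all genes were called (15 of 15655). At an unadjusted p under 0.05, 3 were lower (Dsp, Pkp2 and Dsg2), against 9.12% of all genes. Dsp had a log2 difference of -1.33 ± 0.29 (SE, edgeR adjusted p = 0.109), Pkp2 -1.95 ± 0.64 (0.226) and Dsg2 -1.34 ± 0.41 (0.191, the last 2 also edgeR adjusted p-values). In 8 both libraries of 24 h were below both of 0.5 h, against 28.9% of all genes, and Dsc2 was above, against 21.2%. Gja1 and Gja5 were high in replicate 1 and low in replicate 2, and without replicate 1 their log2 differences turned from 0.68 to -0.53 and from 0.44 to -0.32. Without replicate 1, Jup (-1.70) and Dsg2 (-2.10) passed the test as lower, as did the second Ctnna3 ID, whose remaining 24 h library was at 0 (6.52% of all genes passed). Without replicate 2, Gja1 passed as higher (1.31; 3.22% of all genes).

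The other members did not pass on the first day. Jup had a log2 difference of -0.80 ± 0.49, Cdh2 -0.64 ± 0.37 and Gjc1 -0.66 ± 0.29 (SE). The Ctnna3 IDs had -1.77 ± 0.80 and -2.83 ± 1.49, and Dsc2 had 0.90 ± 0.39 (SE).

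For this comparison the authors' deposited table calls 7 of the 11 lower at an adjusted p under 0.05 (21.2% of all genes with an adjusted p) and Dsc2 higher (17.8%). The authors' deposited table gives Dsp a log2 fold change of -1.30 with an SE of 0.08. For the second Ctnna3 ID it gives -1.70 with an SE of 0.67, where the fit here gave -2.83 ± 1.49. The errors in the authors' deposited table were smaller for all 11; how the 2 parts of a library entered the authors' fit is not given in the sources used here.

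The second day, 48 h against 24 h, gave 0 calls among the 11 gene IDs and 0% of all genes. At an unadjusted p under 0.05, 5 were lower (Gja1, Dsp, Jup, Dsg2 and Cdh2), against 5.34% of all genes. The libraries of these 5 did not overlap, against 14.6% of all genes, and those of Dsc2 did not overlap upward, against 14.5%. The authors' deposited table calls these 5 lower (9.46% of genes) and Dsc2 higher (6.99%). Dsp differed by -0.98 ± 0.29 and Cdh2 by -1.03 ± 0.37 on the log2 scale (SE; edgeR adjusted p = 0.382 and 0.508). Jup differed by -1.34 ± 0.49, Dsg2 by -1.03 ± 0.41 and Dsc2 by 0.80 ± 0.39 (SE). The libraries of the other members overlapped between 24 h and 48 h: the log2 difference was -1.33 ± 0.65 for Pkp2, -0.82 ± 0.72 for Gja5, 0.02 ± 0.30 for Gjc1, and -0.95 ± 0.82 and -0.79 ± 1.57 for the Ctnna3 IDs (SE). Without replicate 2 of 24 h, 4 of the 5 passed (Gja1, Jup, Dsg2 and Cdh2) and 3.31% of all genes, Gja1 at -2.13 instead of -1.46.

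At 0.5 h, the only time with a vehicle library, rosiglitazone and DMSO were compared with 2 libraries against 1, and the lone DMSO library was assumed to vary like the other groups. No gene ID of the 11 was called, nor was any tested gene (0% of 15655), and at an unadjusted p under 0.05 the 11 also gave 0. The smallest unadjusted edgeR p among the 11 was 0.295 (Dsc2), at rank 1370 of the 15655 genes. DESeq2 called 0 of the 11 as well, and only 2 of all genes (0.0128%). Both rosiglitazone libraries were above the DMSO library in 10 of 11, against 30.2% of all genes, and below it in 1 (the second Ctnna3 ID), against 31.8%. The log2 difference was largest for Gja5 (0.63 ± 0.88) and Dsc2 (0.56 ± 0.48), and it was 0.46 ± 0.65 for Gja1 and 0.25 ± 0.36 for Gjc1 (SE). Among the other desmosomal genes it was 0.33 for Dsp, 0.50 for Pkp2, 0.48 for Jup and 0.35 for Dsg2. Cdh2 had 0.14 and the Ctnna3 IDs 0.48 and -0.04, and the median over the 11 was 0.46 beside 0.01 over all genes. At 0.5 h the summed heart muscle markers were also higher with rosiglitazone (5349 CPM with DMSO against 9146 and 8597 CPM), and all 6 macrophage markers were lower (summed, 487 CPM against 143 and 183 CPM). The part of either was not tested. The authors' deposited table calls 7 of the 11 higher at an adjusted p under 0.05 (5.07% of genes): Gja1, Gja5, Dsp, Pkp2, Jup, Dsg2 and Dsc2. Its SE for Gja5 was 0.10, beside 0.88 here. The 2 parts of the lone DMSO library differed by about the sampling noise, so a spread between DMSO libraries cannot be measured. How these parts entered the authors' fit is not given in the sources used here.

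**Figure D4:**
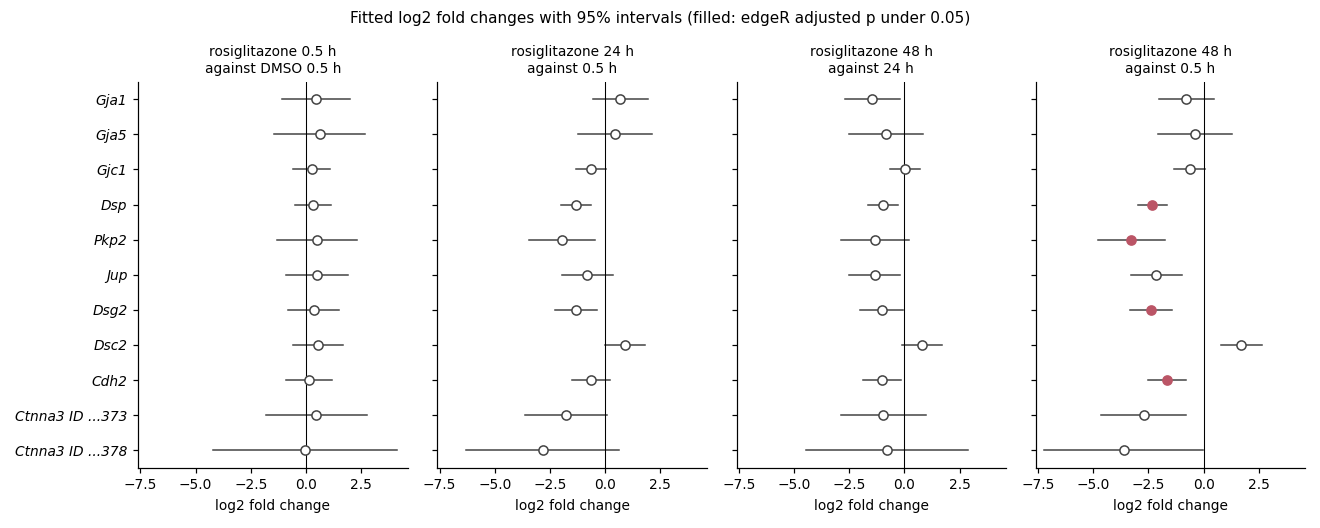
Fitted log2 fold change (points) with 95% interval (lines) of the 11 gene IDs in 4 comparisons; filled points passed edgeR's test at an adjusted p under 0.05. Filled points occur only in the comparison of 48 h with 0.5 h (Dsp, Pkp2, Dsg2 and Cdh2), where Dsc2 lies to the right of 0; the comparisons share libraries, so panels are not independent.

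The likeness of courses over the 7 libraries is given as Pearson's r of log2 CPM, a description over libraries that share time and scaling. Among the junction genes, Cdh2 and Jup had r = 0.99, Pkp2 and Cdh2 0.97, and Dsp and Pkp2 0.96, while Dsc2 had r = -0.93 with Dsp and Gja1 r = 0.27 with Dsp. Out of 10066 genes with a mean of at least 5 CPM, the 3 most like Pkp2 were Lmo7 (r = 0.998), Cdh3 (0.997) and Rem1 (0.996), and 797 genes exceeded 0.9. Lmo7 encodes a LIM-domain protein of adherens junctions and Cdh3 encodes P-cadherin. The course of Gja1 was shared by fewer genes: 86 exceeded 0.9, and the closest were Mrpl48 (0.979), Uqcrc1 (0.979) and Atp5g1 (0.977), which encode mitochondrial proteins. Like Gja1, Uqcrc1 was highest in replicate 1 of 24 h, at 467 CPM against 241 CPM in replicate 2. Having been picked for its likeness to Gja1 in these libraries, Uqcrc1 adds no support by sharing that peak. Whether the 86 genes as a set encode mitochondrial proteins was not tested.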

How the data were processed

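The members and gene lists were chosen with earlier results of these data known. Each deposited table holds raw counts per gene for the samples of its comparison, and the authors' own log2 fold change, standard error, p-value and adjusted p-value, per the file headers. Per the submitters' processing notes, FastQC 0.11.5, cutadapt 1.11, HTSeq and DESeq2 were used, with the build Rnor_6.0; hg19 is named too. Which aligner was used and whether counting used strand is not given in the sources used here, so overlapping genes may share reads. The 14 samples are 7 libraries deposited in 2 parts each. The parts differed by less than the sampling noise or about as much (chi-square divided by its degrees of freedom 0.963 to 1.02, with no pair's p under 0.112) and were summed, so each library counted as 1 sample. Libraries in 2 tables had equal counts in both.

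Counts were fitted in edgeR 4.0.16 (R 4.3.3) with TMM scaling, the tool's own low-count filter, robust dispersions and all 4 groups in the same fit (3 residual degrees of freedom). P-values were adjusted over all 15655 genes by the Benjamini-Hochberg method, with a threshold of 0.05. Standard errors came from the fitted information matrix and the moderated dispersion. Log2 CPM used a prior count of 2. A count of 0 allows up to 3 counts, 0.106 to 0.279 CPM per library, for counting error only. As alternatives, DESeq2 1.42.0 gave the size factors or the whole test, the low-count filter was changed, the fit was limited to the groups compared, a replicate block was added, and each library was left out. The rule for naming genes took all 10 members in each comparison and, of the other lists, counts and the genes past the threshold. Further ones were chosen after their values were seen (Ctnnb1, Ctnna1, Ctnnd1, Gja4, Tmem43, Myzap, Flnc, Tnnt2, Col1a1, Col3a1, Pdgfra, Lum, Tcf21, Postn, Krt18, Cd68). Some listed genes past the threshold are not reported here by name. Listed genes without a match were Ttn, Col1a2 and Pecam1. Gene coordinates and transcript lengths of the authors' build were not used here.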

Additional observations from a re-analysis of the deposited data

How the results depend on the processing

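Of 553 refits of a junction gene's log2 fold change under another setting, 495 kept their direction and their side of the threshold, 32 passed it anew, 19 no longer passed it and 7 turned sign. From 0.5 h to 48 h, the 4 gene IDs called became 7 with DESeq2 as the test, 8 with only the groups compared and 1 with the replicate number as a block (Dsp), and ranged from 0 to 9 with a library left out. From 0.5 h to 24 h, the 0 calls became 3 with DESeq2 and 1 without a filter on low counts, and ranged from 0 to 3 with a library left out. From 24 h to 48 h they ranged from 0 to 4. The cause was not tested. All 4 called genes kept their direction in all of these settings. The 19 refits that no longer passed were all of these 4 genes from 0.5 h to 48 h, since no member was called in another comparison. Most of the 553 refits were of results not called in the main fit, which had no call to lose. Among all genes, the 1031 calls from 0.5 h to 48 h became 2547 with DESeq2, 2733 with only the groups compared and 407 with the block, and ranged from 12 to 2706 with a library left out. From 0.5 h to 24 h, the 15 became 1212 with DESeq2, 334 without a filter, 0 with only the groups compared and 1 with the block, and ranged from 0 to 1008. From 24 h to 48 h, the 0 became 492 with DESeq2 and 19 without a filter, and ranged from 0 to 509. For rosiglitazone against DMSO at 0.5 h, the 0 became 2 with DESeq2, 1 without a filter and 174 with only the groups compared. Signs turned for the second Ctnna3 ID at 0.5 h against DMSO (0.54 with the block), and with a library left out for Gja1 (-0.53 to 1.31) and Gja5 (-0.32 to 0.92) from 0.5 h to 24 h, for Gjc1 (-0.028 to 0.072) and the first Ctnna3 ID (-2.04 to 0.25) from 24 h to 48 h, and for Gja5 from 0.5 h to 48 h (-2.03 to 0.35). Without replicate 1 of 24 h the second Ctnna3 ID had no standard error, since its only remaining 24 h library had 0 counts. It was left out of the 553 refits in that setting. Rosiglitazone against DMSO could not be fitted without the DMSO library.

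Replicate numbers gave little sign of pairing: deviations of same-numbered libraries correlated over genes at -0.083 (0.5 h and 24 h), 0.062 (0.5 h and 48 h) and -0.122 (24 h and 48 h). Such correlations cannot show whether same-numbered libraries shared a preparation, which is not in the labels. DESeq2 size factors shifted the median of all genes by at most 0.022 on the log2 scale. The fit rests on 2 libraries a group, 1 for DMSO. Depth was lowest for Ctnna3, whose IDs had 7 to 32 counts per library at 48 h; its part in the missed calls was not tested.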
